A study of Drosophila melanogaster with 48 samples.

Results

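GXIVsPLA2 (FBgn0036545) and CG10184 (FBgn0039094) are 2 genes, of 16185 in the series, with more transcript in the gut of flies induced to express spliced Xbp1. The rise exceeded the effect of the inducer in the driver-alone gut and the effect of inducing spliced Xbp1 in the fat body. GXIVsPLA2 was 2.22-fold higher (95% interval 1.59 to 3.10) and CG10184 was 3.21-fold higher (2.25 to 4.59) in the gut of RU+ than of RU- S106>Xbp1s females. In the other 5 comparisons of RU+ with RU- tissue, neither gene was called. The members were chosen from measured values: the effects in S106>Xbp1s gut, S106>Wdah gut and S106>Xbp1s fat body. These effects and the differences between them are therefore given as descriptions; where a p-value of them is printed, it is a quantity that chose the members or decided a call, and it supports nothing. Tests of the members are those of the effects in S106>Xbp1U gut and S106>Xbp1U fat body. The differences between these, and between S106>Xbp1U and S106>Wdah fat body, were tested too. The study removed the genes called in the driver-alone comparisons, 24 in gut and 1 in fat body, from its analysis of spliced Xbp1. A gene with values in both S106>Xbp1s organs was therefore not called in S106>Wdah gut or fat body. Those non-calls were fixed in advance and are no test.

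The experiment used adult Drosophila melanogaster females in which S106, a GeneSwitch driver, was activated by RU486 in the food. S106 is a driver for the gut and the fat body, and both organs of the same flies were profiled. How strongly the transgene was induced in each organ cannot be read from total Xbp1 message, which is given below. S106>Xbp1s RU+ flies were induced to express the spliced form of Xbp1 and were compared with S106>Xbp1s RU- flies of the same genotype. S106>Xbp1U RU+ flies carried an Xbp1 construct altered so that it could not be spliced, and were compared with S106>Xbp1U RU- flies. S106>Wdah RU+ flies carried the driver with no transgene, in the outbred wDah background, and were compared with S106>Wdah RU- flies. This driver-alone comparison measures what RU486 does by itself. Per the study's methods, all transgenes used were backcrossed into this same Wolbachia-free wDah background. RU+ food held 200 µM RU486 and RU- food the ethanol vehicle alone, and the treatment lasted 7 days, with dissection on day 9. Fat bodies were taken with the abdominal cuticle attached, and each library pooled tissue of several females. By the labels, the gut libraries number 3 RU+ and 3 RU- for S106>Xbp1s, 4 and 4 for S106>Xbp1U, and 4 and 5 for S106>Wdah. The fat body libraries number 4 RU+ and 4 RU- for S106>Xbp1s, 4 and 3 for S106>Xbp1U, and 5 and 5 for S106>Wdah.

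Xbp1 is a transcription factor of the unfolded protein response. When unfolded proteins build up in the endoplasmic reticulum (ER), the sensor Ire1 cuts a short intron out of Xbp1 mRNA in the cytoplasm, and the spliced message encodes the active factor, which is known for raising chaperones, disulfide isomerases and parts of the secretory and degradation machinery. GXIVsPLA2 is named for the group XIV secreted phospholipases A2. Phospholipases A2 cut the middle (sn-2) fatty acid off a glycerophospholipid, leaving a free fatty acid and a lysophospholipid, and the secreted ones enter the ER as they are made. CG10184 has no gene name in the files. RefSeq lists HTMLA as its synonym, the usual abbreviation of hydroxytrimethyllysine aldolase, an activity of carnitine synthesis in mammals. Enzymes of the related threonine aldolase type split threonine or its relatives and release glycine, and the gene was therefore placed below beside genes of glycine, serine and threonine metabolism.

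The genes lie on different chromosome arms. On genome build dm6, GXIVsPLA2 occupies 3L:15955096-15956465 on the forward strand and CG10184 occupies 3R:23602507-23605495 on the reverse strand. GXIVsPLA2 has 3 annotated transcripts of 3 exons each, which together cover 1234 bp of exon. Of these transcripts, 2 encode a protein of 230 residues and 1 encodes 32 residues. CG10184 has 1 transcript of 6 exons and 1330 bp, encoding 383 residues. The deposited values were counted over all exons of a gene, so the 3 transcripts of GXIVsPLA2 are measured as 1. No annotated gene overlaps either of them.

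The tables give, for each gene, a mean normalized count over the libraries of a comparison and a log2 fold change of RU+ over RU- with its standard error (SE). They hold no value of a single library. The level in each treatment group was therefore calculated back from the mean, the fold change and the library numbers, and expressed as CPM, normalized counts per 1000000 in the sum of the table. It is an implied level with no spread of its own. For GXIVsPLA2, the implied level in gut was 21.5 CPM in RU+ S106>Xbp1s flies and 9.68 in RU- S106>Xbp1s flies. The same gene stood at 9.50 CPM in RU+ and 8.87 in RU- S106>Xbp1U guts, and at 9.43 in RU+ and 11.6 in RU- S106>Wdah guts. Thus 5 of its 6 gut groups lay between 8.87 and 11.6 CPM and 1, the RU+ S106>Xbp1s gut, lay above them. In fat body GXIVsPLA2 stood at 16.3 CPM in RU+ and 17.2 in RU- S106>Xbp1s flies, at 23.1 in RU+ and 26.7 in RU- S106>Xbp1U flies, and at 26.4 in RU+ and 25.9 in RU- S106>Wdah flies. The induced gut level of GXIVsPLA2 was thereby within the range of its fat body levels.

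CG10184 had an implied gut level of 55.9 CPM in RU+ S106>Xbp1s flies and 17.4 in RU- S106>Xbp1s flies. It stood at 9.48 CPM in RU+ and 14.0 in RU- S106>Xbp1U guts, and at 15.2 in RU+ and 13.9 in RU- S106>Wdah guts. In fat body the levels of CG10184 were 10.6 CPM in RU+ and 7.89 in RU- S106>Xbp1s flies, 6.31 in RU+ and 9.04 in RU- S106>Xbp1U flies, and 7.79 in RU+ and 6.90 in RU- S106>Wdah flies. The RU+ S106>Xbp1s gut was above the other 11 groups, and all 6 fat body groups were below every gut group but the RU+ S106>Xbp1U gut.

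**Figure D1:**
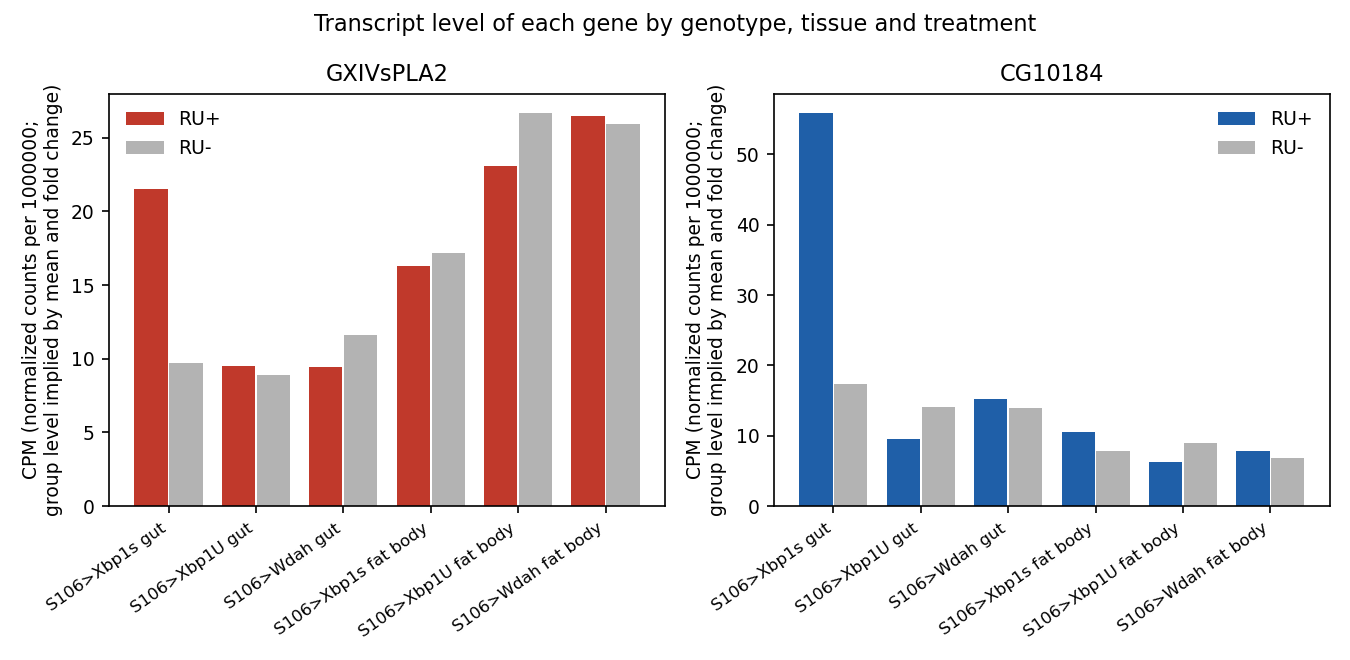
Implied level of GXIVsPLA2 (left) and CG10184 (right) in the 12 groups, in CPM, normalized counts scaled to the table's sum (linear axes from 0; RU+ in colour, RU- in grey). Each bar is calculated from the deposited mean and fold change and has no error of its own. The RU+ S106>Xbp1s gut reached 21.5 for GXIVsPLA2 and 55.9 for CG10184, against 9.68 and 17.4 in RU- S106>Xbp1s gut.

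In S106>Xbp1s gut, the log2 fold change of GXIVsPLA2 was 1.15 (SE 0.25, 95% interval 0.67 to 1.63), with a mean of 364.5 normalized counts. CG10184 changed by 1.68 on the log2 scale (SE 0.26, 95% interval 1.17 to 2.20), with a mean of 856.6 normalized counts. A gene counted as called where the Benjamini-Hochberg adjusted p of the authors' DESeq2 Wald test was under 0.1. By that criterion 114 of 8272 genes were called in S106>Xbp1s gut (1.38%), with 67 rising (0.81%) and 47 falling (0.568%). These p-values were part of what chose the members, so they support nothing here: the adjusted p was 9.81e-04 for GXIVsPLA2 and 2.49e-07 for CG10184. Among the 67 rising genes, GXIVsPLA2 had the 12th largest fold change and CG10184 the 9th. By p alone they ranked 22nd and 3rd among all genes of the table.

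RU486 without a transgene gave a log2 fold change of -0.30 (SE 0.20) for GXIVsPLA2 and 0.13 (SE 0.25) for CG10184 in S106>Wdah gut, where 0.262% of genes were called. The S106>Xbp1s gut effect of GXIVsPLA2 exceeded that of the driver-alone gut by 1.45 on the log2 scale (SE 0.32), and that of CG10184 by 1.55 (SE 0.36). The members were chosen for passing this difference, so it has no test here. The limit that chose them was an adjusted p of 0.1 from z, the difference over its combined SE, over the 8971 genes whose mean reached 10 normalized counts in both tables, and 4 genes passed it (0.0446%), all of them higher in S106>Xbp1s gut. The estimate for GXIVsPLA2 in driver-alone gut was below 0, and this places its difference above its effect in S106>Xbp1s gut alone. For CG10184 the difference was slightly below the effect.

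In S106>Xbp1s fat body, where 12.0% of genes were called, GXIVsPLA2 had a log2 fold change of -0.08 (SE 0.16, 95% interval -0.39 to 0.23) and was not called. CG10184 had 0.42 (SE 0.19, 95% interval 0.05 to 0.79). Its adjusted p was left blank by the authors' filter on low means, since its mean of 231.9 lay under 255.3, the lowest mean with an adjusted p in that table. The DESeq2 Wald p was therefore adjusted again by Benjamini-Hochberg, giving 0.30 over all genes with a p and 0.168 over genes whose mean reached 100. The positive value of CG10184 in fat body was therefore not a call under either adjustment, and its interval lay below that of the gut effect. The gut effect exceeded the fat body effect by 1.23 (SE 0.29) for GXIVsPLA2 and by 1.26 (SE 0.32) for CG10184. This difference too chose the members and has no test here; 29 of 8674 genes passed its limit (0.334%).

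**Figure D2:**
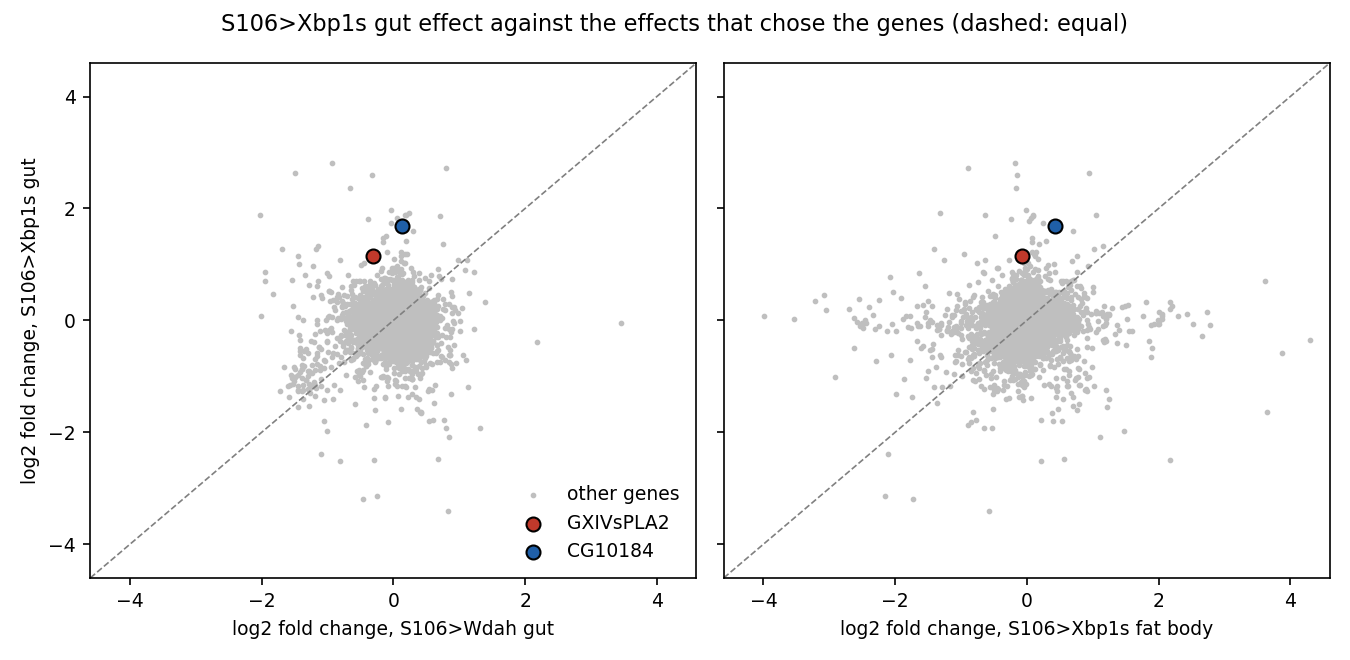
Log2 fold change of RU+ over RU- in S106>Xbp1s gut (vertical axis) against that in S106>Wdah gut (left) and S106>Xbp1s fat body (right), for genes whose mean reached 10 in all 6 tables. Grey points are other genes and the dashed line marks equal effects. GXIVsPLA2 (red) lies at 1.15 against -0.30 and -0.08, and CG10184 (blue) at 1.68 against 0.13 and 0.42.

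The members are not the only genes past both differences. P58IPK, an ER co-chaperone of the BiP chaperone, and CG9498 passed them too, so that 4 genes did in all. The adjusted p-values beside these limits are the values the choice was made on. Just inside the limit of the driver-alone difference were CG9498 (1.71 on the log2 scale, SE 0.38, adjusted p = 0.0187) and CG10184 itself (1.55, adjusted p = 0.0464). Just outside it were sel, which encodes the ER protein seele (1.32, SE 0.33, adjusted p = 0.105), and CG4830 (-1.39, SE 0.37, adjusted p = 0.220). For the gut against fat body difference, the genes next to the limit were CG9706 (0.92, SE 0.25, adjusted p = 0.0837) and Ost48, an oligosaccharyltransferase subunit (0.76, SE 0.21, adjusted p = 0.0846), inside it. CG7484 (0.85, SE 0.24, adjusted p = 0.105) and GCS2beta, a subunit of glucosidase II (0.78, SE 0.22, adjusted p = 0.107), were outside it. CG10184 was thus the last gene inside the driver-alone limit, and GXIVsPLA2 had the smallest p of all genes there.

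Whether Xbp1 that cannot be spliced has an effect on the genes was asked in S106>Xbp1U gut, which the choice of members did not use. Total Xbp1 message changed there by 0.03 (SE 0.20) on the log2 scale, so the strength of induction is not known from it. GXIVsPLA2 had a log2 fold change of 0.10 (SE 0.19, 95% interval -0.26 to 0.46), with an unadjusted p of 0.592 and an adjusted p of 1.0 in DESeq2. CG10184 had -0.57 (SE 0.22, 95% interval -0.99 to -0.14), which is a level in RU+ guts of 0.676 times that in RU- guts. The unadjusted Wald p of CG10184 was 0.00966, the 59th smallest among 14135 genes, and its DESeq2 adjusted p was 1.0. Neither gene was called, in a table where 0.092% of genes were. With their own SEs, a call in S106>Xbp1U gut would have needed a log2 fold change of about 0.72 for GXIVsPLA2 and 0.85 for CG10184. The upper limits of both intervals lay under the lower limits in S106>Xbp1s gut. The S106>Xbp1s gut values chose the members as high, so this separation is a description and no test. For CG10184 the estimate in S106>Xbp1U gut was below 0 and that in S106>Xbp1s gut above 0, but the former was not called.

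Set against each other, the S106>Xbp1s gut effect exceeded the S106>Xbp1U gut effect by 1.05 (SE 0.31, 95% interval 0.45 to 1.65) on the log2 scale for GXIVsPLA2. For CG10184 it did so by 2.25 (SE 0.34, 95% interval 1.58 to 2.92), the largest difference relative to its SE among 8954 genes. By the same measure GXIVsPLA2 ranked 34th. These values use the S106>Xbp1s gut effect that chose the genes and carry no test. The S106>Xbp1U gut effect less the driver-alone gut effect was 0.40 (SE 0.27) for GXIVsPLA2 and -0.70 (SE 0.33) for CG10184, also a description. Both of these comparisons share a table with those above.

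In S106>Xbp1U fat body, GXIVsPLA2 had a log2 fold change of -0.21 (SE 0.35, 95% interval -0.88 to 0.47) and CG10184 had -0.52 (SE 0.47, 95% interval -1.44 to 0.40). Their unadjusted DESeq2 Wald p-values were 0.549 and 0.270. Neither was called, beside 0.0968% of all genes tested. This table had the widest SEs for both genes: only a log2 fold change of about 1.36 for GXIVsPLA2 and 1.85 for CG10184 would have been called. At these SEs, an estimate of the size seen in S106>Xbp1s gut would not have been called for either gene. In S106>Wdah fat body the values were 0.03 (SE 0.20, 95% interval -0.36 to 0.42) for GXIVsPLA2 and 0.17 (SE 0.35, 95% interval -0.51 to 0.86) for CG10184, in a table with 0.0068% of genes called. Their unadjusted DESeq2 Wald p-values were 0.885 and 0.617. Neither could be a call there, since driver-alone calls were removed from the S106>Xbp1s analysis. All 4 of these effects had an adjusted p of 1.0.

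The effect in S106>Xbp1U fat body less that in driver-alone fat body was -0.24 (SE 0.40, 95% interval -1.02 to 0.55) for GXIVsPLA2 and -0.69 (SE 0.59, 95% interval -1.84 to 0.45) for CG10184. Neither difference passed the z test (adjusted p = 1.0 for both, against 0.0736% of 9512 genes that passed). The S106>Xbp1U effect in gut less that in fat body was 0.31 (SE 0.39, 95% interval -0.46 to 1.07) for GXIVsPLA2 and -0.05 (SE 0.52, 95% interval -1.06 to 0.97) for CG10184, and neither passed the same z test (adjusted p = 1.0), while 0.0573% of 8729 genes did. For CG10184 the S106>Xbp1U estimates in gut and fat body were both below 0 and differed by less than their error.

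**Figure D3:**
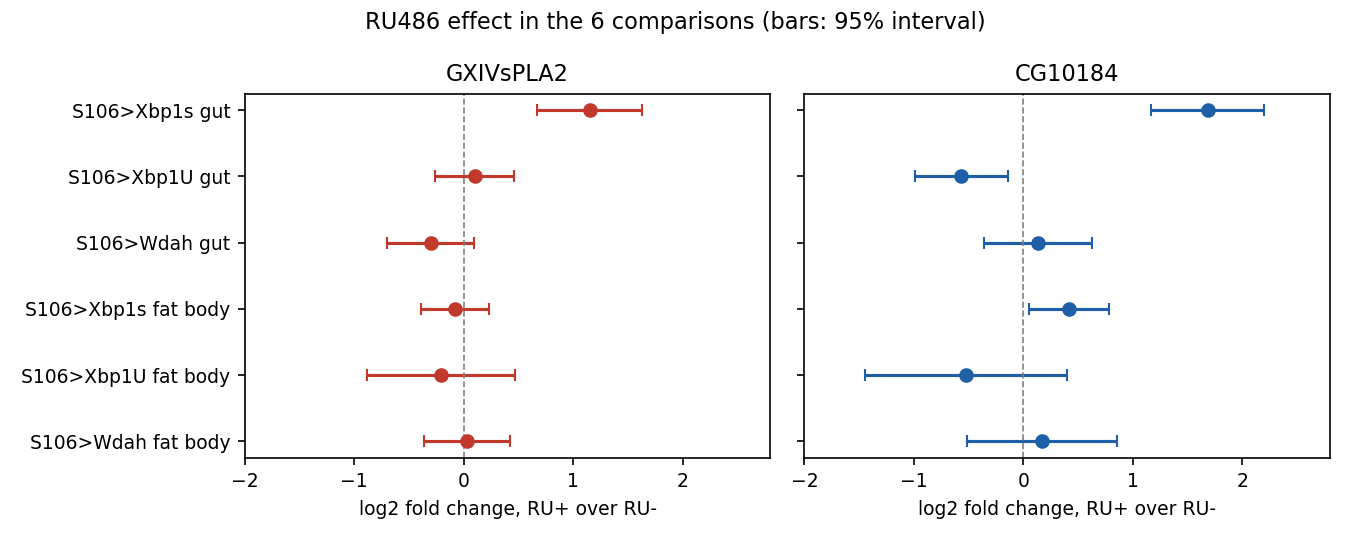
Log2 fold change of RU+ over RU- for GXIVsPLA2 (left) and CG10184 (right) in the 6 comparisons, with points for the deposited estimates and bars for their 95% intervals (1.96 SE each way). The S106>Xbp1s gut intervals, 0.67 to 1.63 and 1.17 to 2.20, lie above 0, as does that of CG10184 in S106>Xbp1s fat body (0.05 to 0.79). The S106>Xbp1U fat body intervals are the widest.

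The levels of the genes differed between the organs in opposite ways. GXIVsPLA2 had a mean of 364.5, 215.7 and 239.6 normalized counts in gut (S106>Xbp1s, S106>Xbp1U, S106>Wdah) and of 420.2, 565.2 and 636.4 in fat body. Its share of the gut table relative to its share of the fat body table was 0.932 in S106>Xbp1s, 0.373 in S106>Xbp1U and 0.407 in S106>Wdah flies. CG10184 had means of 856.6, 275.8 and 325.9 in gut and of 231.9, 171.6 and 178.7 in fat body. Its gut share relative to fat body was 3.97, 1.57 and 1.97 in the same order of genotypes. Taken over implied RU- groups only, which hold no RU486, the ratio was 0.563, 0.333 and 0.449 for GXIVsPLA2 and 2.20, 1.55 and 2.01 for CG10184. GXIVsPLA2 was therefore lower in gut than in fat body and CG10184 higher in gut, in each of the 3 genotypes without the inducer. In RU+ S106>Xbp1s flies the ratio was 1.32 for GXIVsPLA2 and 5.29 for CG10184. The tables were normalized separately, so these ratios have no test, and in whole organs fewer cells of a type and less RNA per cell cannot be told apart.

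GXIVsPLA2 was of middling abundance in both organs, and CG10184 ranked lower in fat body than in gut. Among genes whose mean reached 10, GXIVsPLA2 stood at percentile 49.6, 39.3 and 39.9 in the S106>Xbp1s, S106>Xbp1U and S106>Wdah gut tables and at 46.1, 53.2 and 56.2 in the fat body tables. CG10184 stood at percentile 68.6, 44.9 and 47.2 in gut and at 33.2, 27.4 and 28.1 in fat body. Per kilobase of exon, CG10184 was 2.18, 1.19 and 1.26 times as abundant as GXIVsPLA2 in the 3 gut tables. In the fat body tables the same ratio per kilobase was 0.512, 0.282 and 0.260. In implied group levels per kilobase, the ratio in RU+ S106>Xbp1U gut was 0.925, below 1, and in the other 5 gut groups it was 1.11 to 2.41. In all 6 fat body groups it was 0.247 to 0.603, with GXIVsPLA2 the more abundant.

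Over the 6 log2 fold changes, the genes most like each member were found by Euclidean distance among 8407 others whose mean reached 10 in every table. This includes the values that chose the members, and it is a description. The nearest to GXIVsPLA2 was sel, at a distance of 0.362, with a log2 fold change of 1.22 (SE 0.23) in S106>Xbp1s gut. Next came asRNA:CR44054, an antisense RNA, at 0.400. Its value in S106>Xbp1s gut was 0.88 with an SE of 0.61 and it was not called, and it overlaps other annotated genes, whose reads could be shared with it. BI-1, a Bax inhibitor of the ER membrane, followed at 0.472, Der-1, a Derlin that serves ER-associated degradation, at 0.495, and p24-1, a cargo receptor between ER and Golgi, at 0.524. The 4 named protein-coding genes among these 5 were each called as rising in S106>Xbp1s gut, with log2 fold changes of 0.76 to 1.22. The list depends on the measure: by distance of Wald statistics, 2 of these 5, sel and Der-1, were again among the 5 nearest.

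For CG10184 the nearest was Manf, an ER-resident secreted factor, at 0.778 with 1.09 (SE 0.23) in S106>Xbp1s gut. It was followed by sel at 0.901, Gem4b at 0.904, P58IPK at 0.934 and Sil1, a nucleotide exchange factor of BiP, at 0.952. Gem4b, named for a component of the complex that builds spliceosomal particles, had an SE of 0.92 around 1.41 and no adjusted p. The distances from CG10184 were larger than those from GXIVsPLA2. The members lay 1.13 from each other, where GXIVsPLA2 was the 15th nearest gene to CG10184 and CG10184 the 1065th nearest to GXIVsPLA2. In S106>Xbp1U gut the estimate of CG10184, -0.57 (SE 0.22), lay below those of these neighbours, -0.28 to 0.21. The closest there was Manf, at -0.28 (SE 0.18). In S106>Xbp1s fat body CG10184, at 0.42 (SE 0.19), lay above them, at 0.04 to 0.29. The closest there were Gem4b, at 0.29 (SE 0.53), and Manf, at 0.18 (SE 0.11). These gaps were not tested, and at these SEs they do not set CG10184 apart from Manf or Gem4b.

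**Figure D4:**
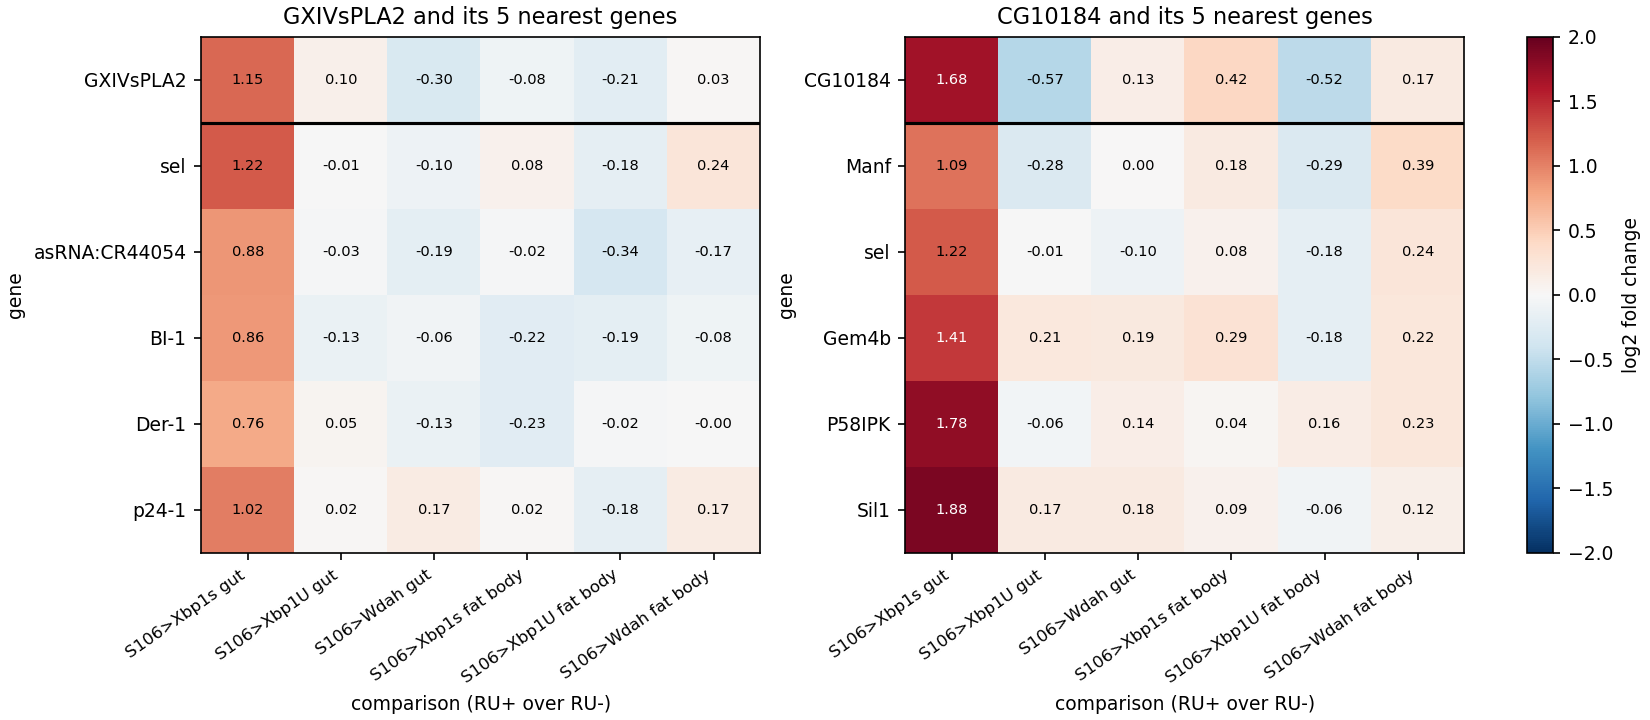
Log2 fold changes of RU+ over RU- in the 6 comparisons (columns) for each member (top row) and the 5 genes nearest to it (rows below), coloured from -2 to 2. For GXIVsPLA2 the neighbours have 0.76 to 1.22 in S106>Xbp1s gut, and for CG10184 1.09 to 1.88.

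None of the other phospholipase A2 genes was called with GXIVsPLA2 in S106>Xbp1s gut, where 1.38% of all genes were and 4 of these others had an adjusted p. Of 10 listed genes, 9 were in the tables, and 5 others besides GXIVsPLA2 had a mean of at least 10 in S106>Xbp1s gut. Their median log2 fold change was 0.13, beside 0.01 over all genes, of which 53.0% were above 0. At an unadjusted DESeq2 p under 0.05 there was 1, iPLA2-VIA, a calcium-independent phospholipase A2, at 0.38 (SE 0.17, adjusted p = 0.809). The largest value was that of sPLA2, a secreted phospholipase A2, at -0.77 with an SE of 0.91 and a mean of 10.6. In S106>Xbp1s fat body, sPLA2 was called lower (-0.43, SE 0.13, adjusted p = 0.0223 in DESeq2), and no listed phospholipase was called in the S106>Xbp1U or S106>Wdah tables. The secreted members differed by organ. In CPM per kilobase, sPLA2 stood at 0.501 to 1.94 in the gut tables and at 61.1 to 86.4 in the fat body tables, and GIIIspla2, a group III secreted enzyme, at 3.65 to 4.94 in gut and 20.8 to 41.3 in fat body. GXIVsPLA2, on the same scale, stood at 7.44 to 12.6 in gut and 13.5 to 21.2 in fat body.

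Genes that build and remodel glycerophospholipids, the substrates of phospholipases A2, had no call in S106>Xbp1s gut (0 of 22, beside 1.38% of all genes). Their median was 0.04 there. The largest value was that of Agpat1, an acyltransferase that makes phosphatidic acid, at 0.82 with an SE of 0.61, and 1 gene, Pis, which makes phosphatidylinositol, had an unadjusted p under 0.05 (0.34, SE 0.13, adjusted p = 0.484 in DESeq2). In S106>Xbp1s fat body 5 of the 21 with an adjusted p were called, 4 lower and 1 higher, beside 12.0% of all genes called in that table. The lower ones were Pect (-0.35, adjusted p = 0.00114) and eas (-0.26, adjusted p = 0.0489), both of phosphatidylethanolamine synthesis, Pisd, which decarboxylates phosphatidylserine (-0.36, adjusted p = 0.0203), and Agpat2 (-0.42, adjusted p = 0.00409). CG33116 was higher (0.47, adjusted p = 0.0419). The fat body calls were thus in the organ where GXIVsPLA2 itself was not called.

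Of the genes of glycine, serine and threonine metabolism listed with CG10184, 15 others had a mean of at least 10 in S106>Xbp1s gut. None of the 13 with an adjusted p was called, beside 1.38% of all genes in that table, none had an unadjusted DESeq2 p under 0.05, and the median was 0.02 with a range of -0.45 to 0.23. Agxt, an aminotransferase that makes glycine from glyoxylate, had the largest value (-0.45, SE 0.44). Shmt, which interconverts serine and glycine, stood at -0.03 (SE 0.24). In S106>Xbp1s fat body, 2 of the 15 with an adjusted p were called, a share close to the 12.0% of all genes called there, and both were lower: Agxt (-0.21, SE 0.08, adjusted p = 0.0798) and Gnmt, which methylates glycine (-0.47, SE 0.18, adjusted p = 0.0885). None was called in the S106>Xbp1U or S106>Wdah tables.

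Of 9 comparator genes of the ER stress response, 5 were called as rising in S106>Xbp1s gut, beside 0.81% of all genes, and all 9 were above 0, with a median of 0.86. The 5 were P58IPK (1.78), Sil1 (1.88), BI-1 (0.86), the disulfide oxidase Ero1L (0.78) and the disulfide isomerase Pdi (0.71). Hsc70-3, the BiP chaperone, had 1.22 (SE 0.47, adjusted p = 0.429) and Gp93, an ER chaperone of the Hsp90 family, 1.73 (SE 0.58, adjusted p = 0.161), and neither was called. GXIVsPLA2 and CG10184 thus had effects within the range of these comparators in gut. The list was chosen with earlier results of these data known, and P58IPK also passed both differences that chose the members. The share called and the range are therefore descriptions. In S106>Xbp1s fat body 1 of the 9, Gp93, was called (0.25, SE 0.09, adjusted p = 0.0642), a share close to the 12.0% of all genes called there, and the median was 0.04.

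**Figure D5:**
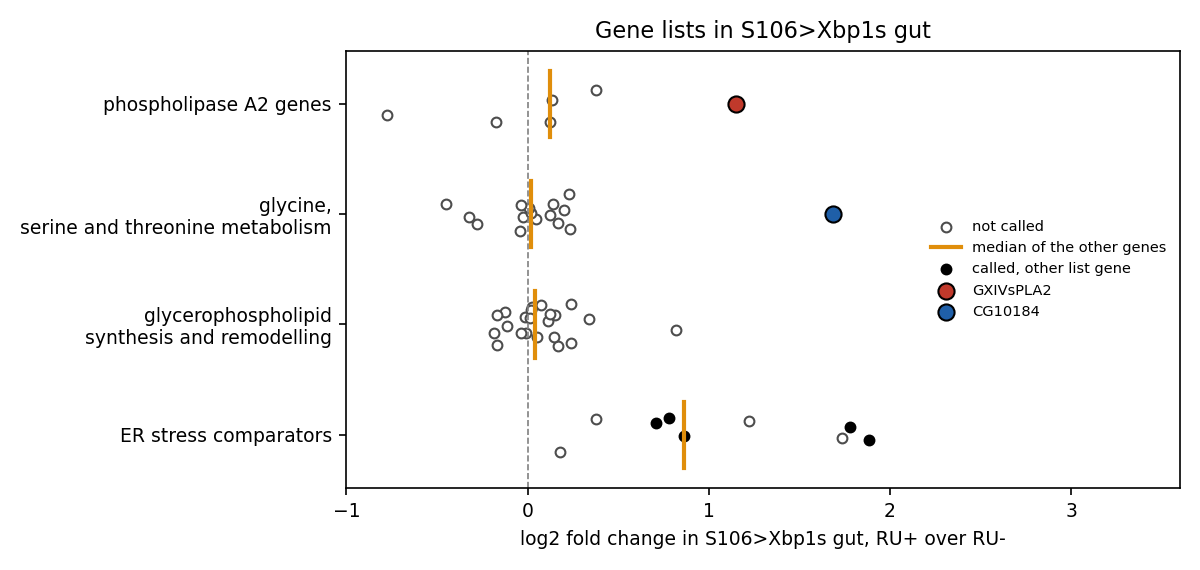
Log2 fold change in S106>Xbp1s gut of the genes of 4 lists whose mean reached 10 (horizontal axis; vertical scatter within a list has no meaning). Open circles were not called, black circles were called, orange lines are medians of the genes other than the members, GXIVsPLA2 is red at 1.15 and CG10184 blue at 1.68. The medians are 0.13, 0.02, 0.04 and 0.86 for phospholipases A2, glycine, serine and threonine metabolism, glycerophospholipid genes and ER stress comparators.

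Of the 8 annotated features beside the members on the chromosome, 6 had an adjusted p in S106>Xbp1s gut and none of these was called. Of the others, a roo transposable element had no value in the tables and tRNA:Leu-CAA-2-3 had a mean of 0.18 and no adjusted p. In S106>Xbp1s gut, Pka-C3, which starts 298 bp before GXIVsPLA2 on the other strand, had -0.14 (SE 0.21), elgi, 84 bp after it, had 0.09 (SE 0.23), and CG17032, 2377 bp after it, had -0.07 (SE 0.22). Next to CG10184, CG31145, 255 bp away on the same strand, had -0.01 (SE 0.20). CG10183, 3472 bp away on the other side, had 1.16 (SE 0.52, adjusted p = 0.836) from a mean of 44.8 normalized counts. It was not called, and its values in S106>Xbp1U gut (-0.89, SE 0.53) and S106>Wdah gut (-1.50, SE 0.72) were below 0. GILT3, 71862 bp away, had 0.30 (SE 0.59).

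Across the series, the summed means of a table came to between 22483518 and 25130044 normalized counts. Xbp1 itself was counted over all its exons, so that transgene, spliced and unspliced message are not separated. Its log2 fold change was 0.41 (SE 0.18) in S106>Xbp1s gut and -0.02 (SE 0.12) in S106>Xbp1s fat body. In S106>Xbp1U flies it was 0.03 (SE 0.20) in gut and 0.89 (SE 0.53) in fat body. In S106>Wdah flies it was -0.39 (SE 0.26) in gut and -0.06 (SE 0.26) in fat body. Xbp1 was not called in any of the 6 comparisons. Total Xbp1 message thus showed no rise in S106>Xbp1s fat body or S106>Xbp1U gut, and the strength of transgene induction there was not tested. Gut enzymes took 5.05 to 6.50% of the gut tables and 0.0141 to 0.0631% of the fat body tables, and 6 fat body markers took 5.95 to 9.87% of the fat body tables and 0.0537 to 0.165% of the gut tables, so the labelled organs carried their own markers. In S106>Xbp1s gut, where the members rose, 0 of 5 gut enzymes, 0 of 4 fat body markers and 0 of 6 muscle markers with a mean of at least 10 were called, with medians of 0.05, -0.26 and 0.07. Of 7 ovary markers, 6 were above 0 with a median of 1.08, none was called, and the 10 matched ovary markers summed to 0.00114% of that table. LManV, the other gut enzyme on the list, had no value in S106>Xbp1s gut. It was called higher in S106>Wdah gut (1.59, SE 0.12), beside 0.262% of all genes called, and driver-alone calls were removed. In S106>Xbp1s fat body, which the choice also used, 2 of 6 gut enzymes were called higher with a median of 1.35, 4 of 6 muscle markers were called lower with a median of -0.39, 1 of 6 fat body markers was called lower with a median of -0.26, and 2 of 10 ovary markers were called higher with a median of -0.49, all beside 12.0% of all genes. None of the marker genes in a table was listed at 0. Such shifts were not confined to S106>Xbp1s fat body. In S106>Wdah fat body all 6 gut enzymes were above 0 with a median of 2.59, and none was called, beside 0.0068% of all genes. In S106>Xbp1U fat body 10 ovary markers had a median of -1.84. Of these, 2 were above 0 and 1 was called lower, beside 0.0968% of all genes called. In S106>Xbp1U gut 1 of 10 ovary markers was called higher, beside 0.092% of all genes called. The part of these markers in the members' values was not tested.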

How the data were processed

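Poly(A) RNA of guts and fat bodies was sequenced in 48 libraries, 12 groups of 3 to 5. Per the study's methods, the authors aligned reads with HISAT2 to dm6, counted exonic reads per gene with featureCounts, removed outlying libraries and tested RU+ against RU- libraries of 1 genotype and organ at a time with DESeq2. They deposited 6 results tables: the mean normalized count (a signal, over all libraries of a table), the log2 fold change with its SE, the Wald statistic (a score), and the p-value with 2 adjusted p-values (Benjamini-Hochberg, and weighted by mean). The authors' fold changes and p-values are used as deposited, since the tables hold no values of single libraries; depth per library is unknown. Library numbers are those of the labels. The libraries removed as outliers included 2 of S106>Xbp1s gut, 1 of S106>Xbp1s fat body and 1 of S106>Wdah gut. These are the comparisons that chose the members. The study's methods call the libraries biological replicates, each a pool of organs from several females. Whether they came from separate cultures is not stated, so p-values weigh an effect against the spread between these libraries.

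From these tables, intervals are the estimate ± 1.96 SE (95%), and differences between tables, which share no libraries, were tested by z with combined SE, 2-sided, adjusted over genes whose mean reached 10 in both (numpy 2.4.6, scipy 1.17.1, pandas 2.3.3). The gut minus fat body differences come from the same flies, and this was not modelled. A call is an adjusted p under 0.1. Symbols were matched for 16152 of 16185 identifiers. Gene models are from Ensembl release 115, whose dm6 coordinates were used for names, exon lengths and neighbours.

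The members and lists were chosen with earlier results of these data known, and the tissue markers, the S106>Xbp1U gut minus fat body difference, the weighted adjustment, the mean of 100 in the 3 tables that chose the members and the driver-alone subtraction in S106>Xbp1U gut were added after values had been seen. Named genes are the members, the 2 genes on each side of each limit, the 5 nearest by distance, chromosomal neighbours (2 features on each side), list genes called in any table, the list gene with the largest value in S106>Xbp1s gut, and Xbp1. List genes with an unadjusted p under 0.05, and CG9498, P58IPK, Hsc70-3, Gp93, Shmt and GIIIspla2 were named after their values were seen. The alternatives were a 5% limit, adjustment without the filter, over genes with a mean of at least 100 and by weighting, no minimum mean, and subtraction of the driver-alone effect. The difference test was checked on simulated data.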

Additional observations from a re-analysis of the deposited data

How the results depend on the processing

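The 74 alternative values of the members' effects and differences kept their direction and their side of the limit. Much of this was fixed in advance. A change of limit, adjustment or minimum mean left the log2 value as it was. Only the subtraction of the driver-alone effect could change a direction, and a 5% limit could not turn a non-call into a call. For the S106>Xbp1s gut effect and the differences that chose the members, the choice itself also fixed the outcome in part. The unchanged values are therefore no sign of stability. For CG10184 in S106>Xbp1s fat body, the other adjustments of the DESeq2 Wald p gave adjusted p-values of 0.168 to 0.707. The z test after subtraction of the driver-alone effect gave 1.0. Percentiles of the mean depend on the genes they are taken over: GXIVsPLA2 in S106>Xbp1s gut stood at 71.8 over all genes of the table and 33.0 over genes with a mean of at least 100, and CG10184 at 82.5 and 58.3. Ranked by distance of Wald statistics, 2 of the 5 nearest genes of GXIVsPLA2 and 3 of the 5 of CG10184 were shared with the list by log2 fold change. No paired analysis was possible because the deposited tables hold no values of single libraries, and leaving out a replicate was not run for the same reason. Precision is limited most in S106>Xbp1U fat body, where the SE was 0.35 for GXIVsPLA2 and 0.47 for CG10184.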
